A study of Mus musculus with 30 samples.

Results

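The genes described are the cilia and flagella associated protein genes of the mouse, chosen as the Ensembl entries whose symbol in GENCODE M21 is Cfap followed by a number. GENCODE M21 lists 31 of them, and 30 have values among the 38906 Ensembl genes held; Cfap99 was not analysed here. The 30 genes were followed in 30 polyadenylated RNA libraries of germ cells enriched from testes of male mice, 1 animal per library, collected 8, 12 and 16 days postpartum (dpp). The animals were C57BL/6J with under 10% 129S1/SvImJ and were Prdm9+/+, Prdm9+/- or Prdm9-/-. Of the +/+ animals 3 were taken at 8 dpp, 1 at 12 dpp and 2 at 16 dpp, of the +/- animals 2, 4 and 3, and of the -/- animals 5 at each age. Below, mutant means -/-, and non-mutant means +/+ and +/- of the same age as 1 class. Prdm9 encodes a histone methyltransferase of early meiosis that marks the sites of recombination. The labels give the genotype of the whole animal, and name no Cre or transgene.

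A motile cilium or sperm tail is built on an axoneme, a ring of microtubule doublets around a central pair. Dynein arms on the doublets slide them past each other, radial spokes and the central pair regulate the arms, and microtubule inner proteins line the inside of the doublets. The name Cfap is shared by proteins from every one of these structures and from the cytoplasmic machinery that assembles dynein, so it marks a place of work and not a common sequence. In the testis the tail is assembled in spermatids, after meiosis. Loss of several of these genes in mice or people gives malformed sperm tails and male infertility.

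The 250 bases before the RefSeq start site (GRCm38.p6) were read for 6 of the genes. Bases that M21 places in an exon of the same gene were removed, except for Cfap298. Cfap206, Cfap52 and Cfap70 are shown because they were among the genes with the largest falls in mutants, Cfap161 and Cfap298 for the motifs their windows hold, and Cfap20 as a gene whose level moved little. Each stretch runs 5′ to 3′ on the strand of the gene, which is the minus strand for all 6. Capitals mark matches, on either strand, to the MYB motif AACNGNC, to the X-box, a palindrome bound by RFX factors, or to GTTGCC, a single arm of the X-box. RFX factors and MYB proteins are known regulators of ciliary and spermatocyte genes respectively.
Cfap206: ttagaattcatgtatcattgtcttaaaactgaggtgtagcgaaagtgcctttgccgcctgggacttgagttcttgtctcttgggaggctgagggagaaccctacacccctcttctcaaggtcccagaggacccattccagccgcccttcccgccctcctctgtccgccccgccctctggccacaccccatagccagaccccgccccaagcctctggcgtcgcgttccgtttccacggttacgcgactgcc
Cfap52: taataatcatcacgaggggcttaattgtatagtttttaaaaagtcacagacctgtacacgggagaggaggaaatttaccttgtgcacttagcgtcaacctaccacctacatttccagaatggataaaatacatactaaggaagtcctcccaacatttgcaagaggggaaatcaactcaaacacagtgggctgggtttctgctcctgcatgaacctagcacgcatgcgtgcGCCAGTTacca
Cfap70: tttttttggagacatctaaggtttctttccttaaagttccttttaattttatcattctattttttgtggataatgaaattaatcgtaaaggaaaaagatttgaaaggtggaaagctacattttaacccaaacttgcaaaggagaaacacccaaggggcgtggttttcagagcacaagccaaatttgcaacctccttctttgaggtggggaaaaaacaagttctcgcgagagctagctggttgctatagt
Cfap161: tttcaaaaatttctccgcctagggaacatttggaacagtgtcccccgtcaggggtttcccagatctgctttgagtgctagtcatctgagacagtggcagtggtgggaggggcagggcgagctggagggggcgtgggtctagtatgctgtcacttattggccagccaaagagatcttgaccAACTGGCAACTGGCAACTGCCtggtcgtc
Cfap298: gggttttgGTTGCCCGGGCAACagctactt
Cfap20: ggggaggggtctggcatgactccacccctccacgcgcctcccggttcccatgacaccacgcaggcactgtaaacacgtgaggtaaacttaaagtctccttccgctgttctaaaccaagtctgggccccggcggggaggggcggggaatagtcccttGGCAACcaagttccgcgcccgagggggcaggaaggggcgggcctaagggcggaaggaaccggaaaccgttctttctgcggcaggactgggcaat
In that order the stretches lie at chr4:34730207-34730456, chr11:67965652-67965892, chr14:20452227-20452475, chr7:83794881-83795089, chr16:90935016-90935045 and chr8:95434870-95435119.

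The Cfap206 and Cfap70 stretches held no match to the 3 motifs. The Cfap52 stretch held 1 MYB match, at -20 to -14 from the start site. In the Cfap161 stretch 3 MYB matches ran head to tail, with X-box arms on the other strand across their joints. The Cfap298 stretch, 30 bases of its window, held the full X-box, and the Cfap20 stretch held 1 X-box arm. The Cfap298 stretch lies before the RefSeq start but inside the M21 bounds of the gene, chr16:90925809-90935114. RefSeq windows of 250 bases before to 50 after a start were read for 23 of the genes, 26 windows in all. Windows on chromosome 18, where Cfap53 lies, were left out for the Cfap genes, which was not done for all windows. A full X-box was found in 1 of the 26 windows (3.85%) and in 0.451% of all 32851 windows, and an X-box arm in 11 windows of 10 genes (42.3%) against 12.5% of all windows. The MYB motif was in 15 windows of 13 genes (57.7%) against 32.8%. Among them was the Cfap206 window, with its match after the start site and so outside the stretch shown. The motifs share letters in some windows, and a match is a description of the sequence and not a binding site.

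Values are TPM, transcript abundances scaled for length and to a common total per library, and so allow levels to be set side by side between genes. The sequencing depth behind them is unknown. Differences are log2 values of TPM + 1, a scale on which low genes appear to change less than they do, with their standard error (SE). They were tested with limma in 1 fit of 6 groups, 2 genotype classes by 3 ages. A row is called where the p-value adjusted over all 20021 rows tested by the Benjamini-Hochberg method is under 0.05. Of the 30 Cfap genes 22 passed the filter of more than 1 TPM in at least 5 libraries and were tested. The 8 others were Cfap44, Cfap58, Cfap73, Cfap97d1, Cfap97d2, Cfap100, Cfap157 and Cfap221. Among the 22, Cfap46, Cfap52, Cfap54, Cfap65 and Cfap299 passed only with the help of the 16 dpp non-mutant libraries.

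Prdm9 itself was at 19.7 to 34.4 TPM in the 16 dpp non-mutants and at 6.89 to 12.8 TPM in the 16 dpp mutants, so its transcript was present in every -/- library. At 8 dpp the level did not separate the classes, and in litter 13 at 12 dpp it went against the labels, with 19.2 TPM in the library labelled -/- and 9.16 TPM in its mate labelled +/-. The tissue label was checked against marker lists. Leptotene and zygotene markers summed to 1628 to 2287 TPM in the 16 dpp non-mutants and 1552 to 2014 TPM in the mutants, and Sertoli cell markers to 6038 to 6583 TPM and 6069 to 7169.5 TPM, so somatic RNA was present in the enriched fraction. The 8 round spermatid markers summed to 9.23 to 22.94 TPM and 6.46 to 12.9 TPM; Prm2 and Catsper1 were listed at 0 in every 16 dpp library, Spaca1 averaged 6.21 TPM in non-mutants and 6.56 TPM in mutants, and of the 4 tested only Acr was called, at 6.83 and 0.046 TPM (log2 change -2.63, SE 0.26, limma adjusted p = 3.13e-08). Markers of multiciliated duct epithelium, another testis-linked source of ciliary transcripts, summed to 48.4 to 87.2 TPM in non-mutants and 58.3 to 82.0 TPM in mutants at 16 dpp, and 0 of the 6 tested passed the test. Epcam made up most of these sums, at means of 57.6 TPM in non-mutants and 58.5 TPM in mutants. Of the other tested markers Ccno had the highest means, 4.26 TPM and 4.37 TPM.

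The level of the Cfap genes spanned a wide range. In the 16 dpp non-mutants the highest were Cfap36, a partner of the small GTPase ARL3, at 96.1 ± 31.9 TPM (SD, n = 5), and Cfap20, a microtubule inner protein also found at basal bodies, at 95.7 ± 8.24 TPM (SD, n = 5), and their libraries overlapped. Cfap298, a dynein assembly factor, followed at 63.9 ± 15.7 TPM (SD, n = 5), and its libraries ran up to those of Cfap20. Cfap97, Cfap300 and Cfap206 came next at means of 33.4, 32.2 and 27.7 TPM with overlapping libraries. The remaining tested genes had means from 1.37 TPM for Cfap77 to 20.97 TPM for Cfap69. At the low end Cfap97d1 was listed at 0 in all 30 libraries, and Cfap73 was listed at 0 in all libraries of 16 dpp. Cfap157, Cfap44 and Cfap221, which missed the filter, reached 1.32 ± 0.981 TPM, 1.46 ± 1.13 TPM and 1.56 ± 1.41 TPM (SD, n = 5 each) in the 16 dpp non-mutants, against 0.572 ± 0.292 TPM, 0.402 ± 0.1001 TPM and 0.206 ± 0.0991 TPM (SD, n = 5 each) in the mutants of that age. They were not tested. Cfap58, Cfap97d2 and Cfap100 stayed under 1 TPM in the mean of every group.

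**Figure D1:**
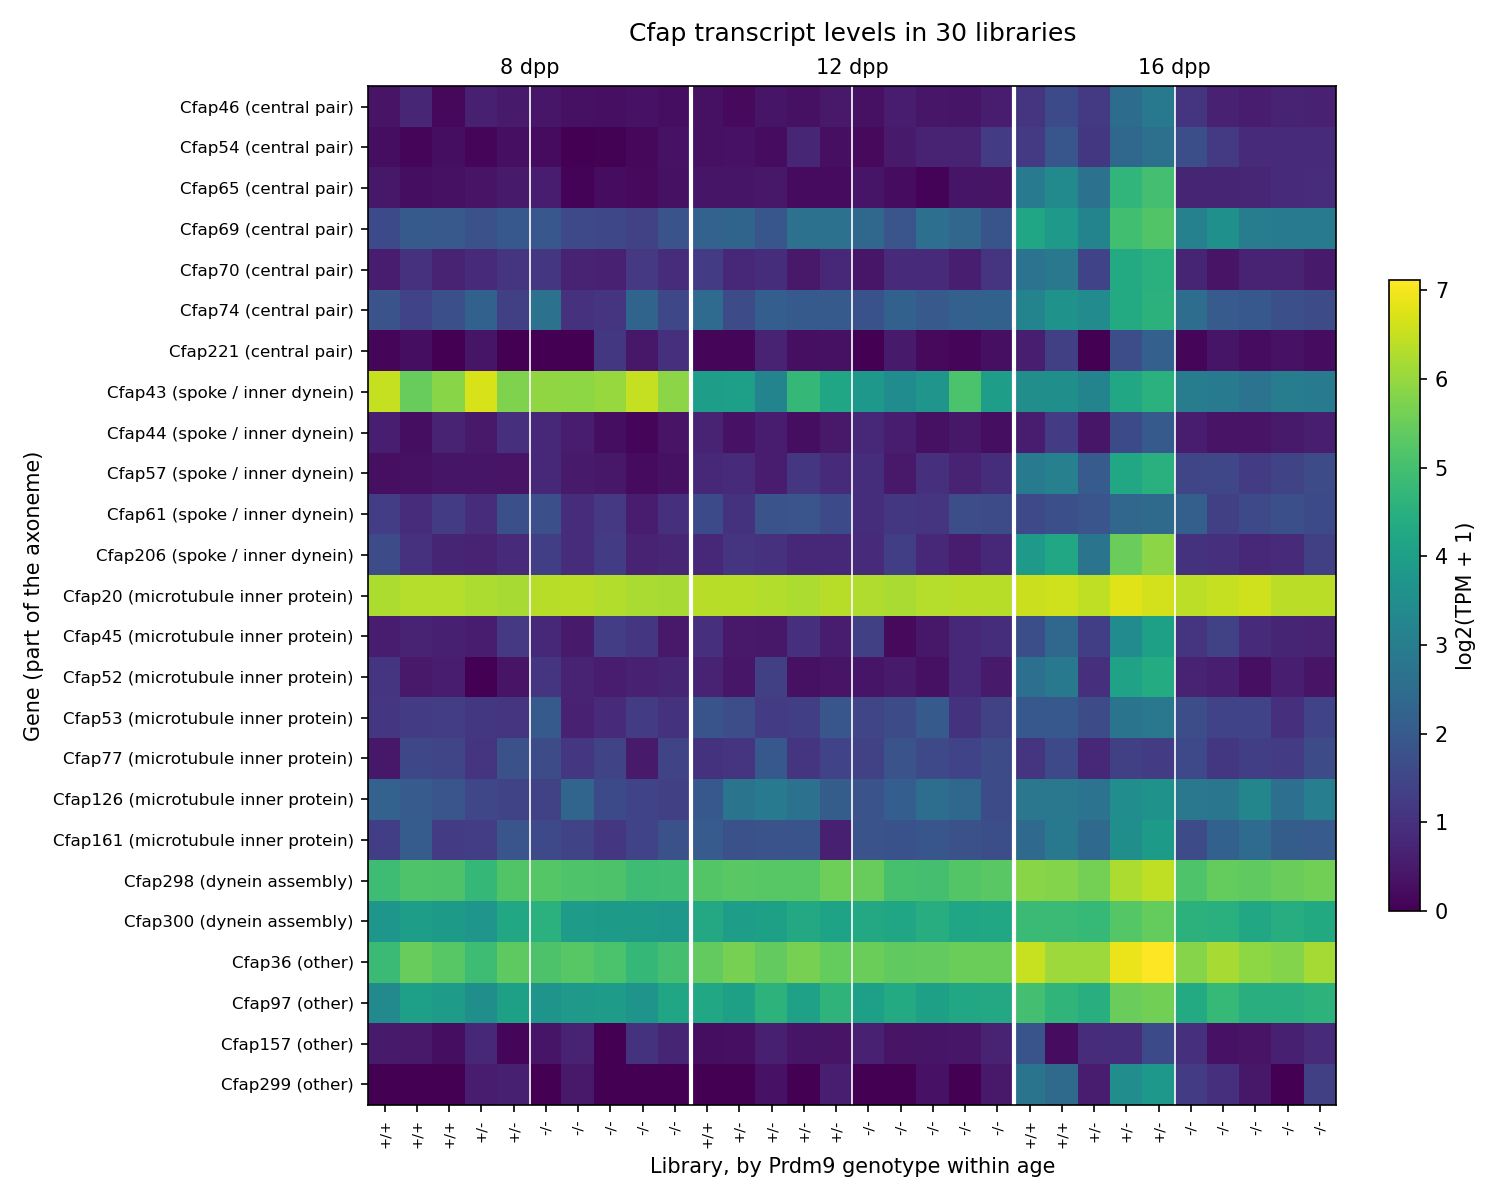
Colour shows log2(TPM + 1) of the 25 Cfap genes whose mean reached 1 TPM in some group, 1 column per library, ordered by age and by Prdm9 genotype within age, with the structure each protein belongs to. Most genes brighten in the 16 dpp +/+ and +/- columns and stay dark in the 16 dpp -/- columns, while Cfap43 is brightest at 8 dpp and Cfap20 is bright throughout.

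At 16 dpp transcripts from nearly every part of the axoneme were lower in mutants than in non-mutants. Among the 22 Cfap genes tested 15 fell and 0 rose, while 2.75% of all 20021 rows fell and 0.509% rose (3.26% in either direction). No Cfap gene was higher at an unadjusted p under 0.05 either. The median change of the 22 genes was -0.91, and that of all rows was 0.07. Passing the filter only through the 16 dpp non-mutants favours a lower level in mutants, so the count was also split. Of the 17 that passed without those libraries 11 fell, and of the 5 others 4 fell. Replicates are separate animals, but fewer cells of a type and less RNA per cell cannot be told apart in such bulk libraries. Pooling the +/- with the +/+ animals matters here: with the +/+ libraries alone as controls 18 of the genes could be tested and 3 fell, Cfap206, Cfap57 and Cfap70. The +/+ controls at 16 dpp number 2, where all non-mutants number 5, and whether genotype or number lowered the count was not tested. With the 16 dpp libraries fitted alone 6 of 21 fell. With 1 library left out the count was lowest, 11 of 21, without +/- replicate 2 or 3 of 16 dpp. It was highest, 17 of 21, without +/- replicate 1. Cfap65 missed the filter in each of these leave-out fits. The shares of all rows given above belong to the fit of 6 groups with all 30 libraries. Shares under these alternatives are not reported, so these counts cannot be set against them.

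**Figure D2:**
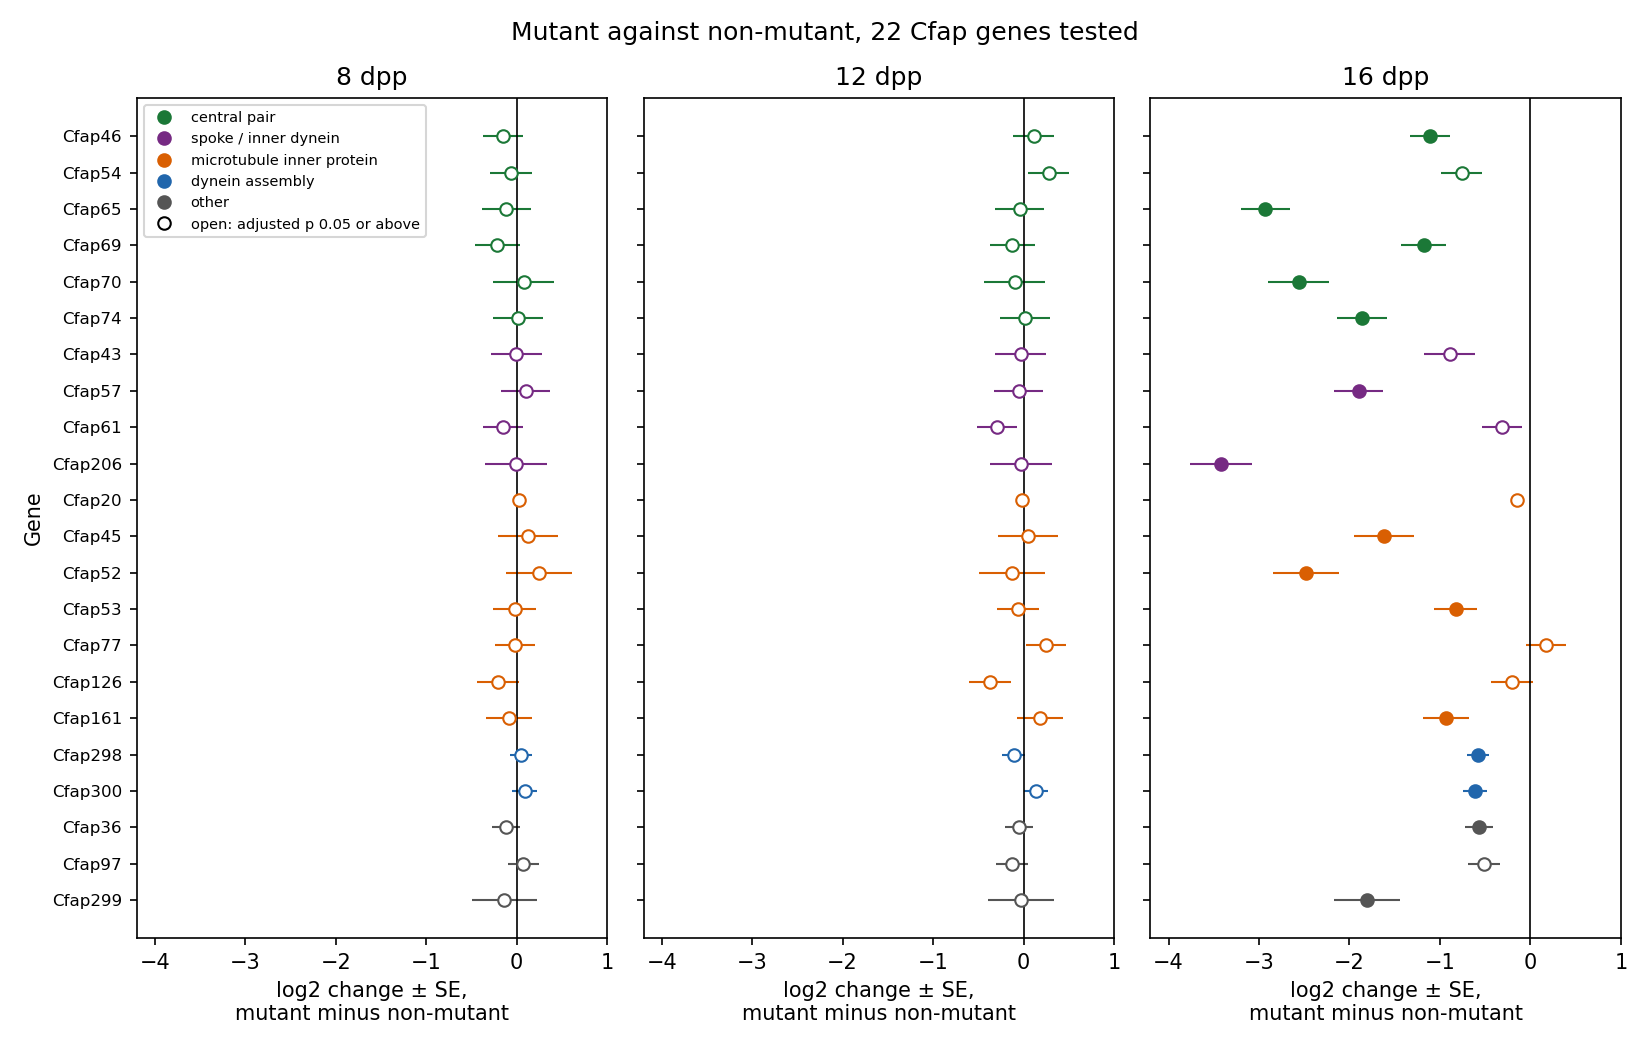
Points give the log2 change of each tested Cfap gene in mutants against non-mutants, with bars for the SE, at 8, 12 and 16 dpp, coloured by structure and filled where the adjusted p was under 0.05. Filled points appear at 16 dpp, all of them below 0, and the points of 8 and 12 dpp lie near 0.

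Of the 7 members of the central pair apparatus, the pair of single microtubules with projections in the middle of the axoneme, 6 were tested and 5 fell. Cfap65 (chr1:74902071-74935599, minus strand, mm10) is a central pair protein needed for sperm tail formation. At 16 dpp it had 6.61 and 9.62 TPM in the +/+ libraries, 5.27, 24.8 and 30.9 TPM in +/- and 0.66, 0.67, 0.71, 0.82 and 0.86 TPM in -/-. All mutants lay under 1 TPM and all non-mutants above 5 TPM, with +/- replicates 2 and 3 far above the other non-mutants. The mean was 15.4 ± 11.6 TPM in non-mutants and 0.744 ± 0.0907 TPM in mutants (SD, n = 5 each), 20.7 times lower, and the log2 change was -2.93 (SE 0.27, limma adjusted p = 1.07e-08).

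Cfap70 (chr14:20394193-20452226, minus strand), a tetratricopeptide repeat protein of the axoneme, had 5.55 and 6.15 TPM in +/+, 1.68, 19.5 and 21.99 TPM in +/- and 0.68, 0.3, 0.62, 0.65 and 0.43 TPM in -/- libraries of 16 dpp. Again the classes did not overlap, though +/- replicate 1 came close to the mutants. The log2 change was -2.56 (SE 0.34, limma adjusted p = 4.62e-06). Cfap74 (chr4:155409190-155466823, plus strand), from a projection of the central pair, had 8.2 and 11.4 TPM in +/+, 9.71, 19.4 and 22.9 TPM in +/- and 4.79, 3.11, 2.9, 2.31 and 2.06 TPM in -/- libraries. Its classes were apart as well, and unlike the genes above it kept a few TPM in every mutant. It changed by -1.86 (SE 0.28, limma adjusted p = 3.15e-05), which +/+ controls alone did not call (adjusted p = 0.056).

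Cfap69 (chr5:5579278-5664239, minus strand), a central pair protein with a role in sperm tails and olfactory cilia, had 17.7 and 13.3 TPM in +/+, 8.24, 30.2 and 35.5 TPM in +/- and 7.79, 10.9, 7.14, 6.42 and 6.52 TPM in -/- libraries. Here the classes touched, since +/- replicate 1 lay below -/- replicate 2. Its log2 change was -1.18 (SE 0.25, limma adjusted p = 0.00319). Cfap46 (chr7:139600951-139683817, minus strand), from the same projection as Cfap74, had 1.08 and 2.04 TPM in +/+, 1.31, 4.75 and 6.31 TPM in +/- and 1.15, 0.58, 0.48, 0.65 and 0.58 TPM in -/- libraries and changed by -1.11 (SE 0.22, limma adjusted p = 0.00189). Only -/- replicate 1 reached the range of its non-mutants. Cfap54, from that projection too, averaged 2.95 ± 1.77 TPM in non-mutants and 1.21 ± 0.646 TPM in mutants (SD, n = 5 each) and missed the threshold at -0.76 (SE 0.23, limma adjusted p = 0.0692). With the litter as a random block its adjusted p was 0.0298, and as a fixed block 0.1041.

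Among the 7 genes of the radial spokes and of the inner dynein regulators, 4 were tested and 2 fell. Cfap206 (chr4:34688559-34730206, minus strand), which helps to dock a radial spoke and an inner dynein on the doublet, showed the largest change of all Cfap genes. It had 13.1 and 18.03 TPM in +/+, 5.69, 43.6 and 57.9 TPM in +/- and 1.07, 0.99, 0.75, 0.84 and 1.53 TPM in -/- libraries of 16 dpp. Every non-mutant exceeded every mutant, and the non-mutants themselves ran over a 10.2-fold range. The mean was 27.7 ± 22.1 TPM against 1.04 ± 0.303 TPM (SD, n = 5 each), 26.7 times lower in mutants, with a log2 change of -3.42 (SE 0.34, limma adjusted p = 4.005e-08).

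Cfap57 (chr4:118554551-118620777, minus strand), an adaptor for inner dynein arms, had 6.51 and 7.49 TPM in +/+, 3.12, 18.01 and 22 TPM in +/- and 1.8, 1.84, 1.34, 1.74 and 2.15 TPM in -/- libraries. The classes were apart, with the mutants in a narrow band below +/- replicate 1. It changed by -1.90 (SE 0.27, limma adjusted p = 1.68e-05). Cfap61, of the spoke-associated complex at the base of the spokes, was at 3.11 ± 1.11 TPM and 2.27 ± 0.711 TPM (SD, n = 5 each) and did not pass the test at -0.32 (SE 0.22, limma adjusted p = 0.614). Its exons share 57 bases with Crnkl1 on the opposite strand, and whether the counting used strand is not stated.

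Cfap43 (chr19:47736857-47919287, minus strand), part of a tether that holds an inner dynein, was not called in the fit without litter. Its 16 dpp libraries had 10.4 and 10.6 TPM in +/+, 8.3, 18.04 and 22.1 TPM in +/- and 7.02, 6.61, 5.6, 7.02 and 6.68 TPM in -/-. Every mutant was below every non-mutant, yet the log2 change of -0.89 (SE 0.28, limma adjusted p = 0.0904) missed the threshold. With litter as a fixed block the adjusted p was 0.00317, and as a random block 0.0128. A transcript of Cfap43 in M21 shares 164 exon bases with Itprip on the same strand, 2.3% of its exon bases, so reads there could have been split between the genes; Itprip was not analysed here.

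The microtubule inner proteins numbered 7, all of them tested, and 4 fell. Cfap52 (chr11:67924806-67965651, minus strand), a WD-repeat protein at the doublet's inner junction, had 5.06 and 6.39 TPM in +/+, 0.96, 16.1 and 19.8 TPM in +/- and 0.61, 0.51, 0.23, 0.5 and 0.29 TPM in -/- libraries of 16 dpp. The mutants were all below the non-mutants, although +/- replicate 1 stood nearer to them than to the other non-mutants. Its mean was 9.67 ± 7.95 TPM against 0.428 ± 0.161 TPM (SD, n = 5 each), 22.6 times lower in mutants, and the log2 change was -2.48 (SE 0.37, limma adjusted p = 2.90e-05).

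Cfap45 (chr1:172520801-172545870, plus strand) binds inside the doublet and is linked to body laterality as well as sperm motility. It had 2.25 and 4.17 TPM in +/+, 1.52, 9.87 and 15.7 TPM in +/- and 1.16, 1.67, 0.8, 0.66 and 0.62 TPM in -/- libraries and changed by -1.62 (SE 0.33, limma adjusted p = 0.00236). The classes overlapped at a single point, -/- replicate 2 against +/- replicate 1. Cfap161 (chr7:83774101-83794880, minus strand), also of the doublet lumen, had 4.42 and 6.28 TPM in +/+, 4.35, 10.6 and 13.7 TPM in +/- and 2.07, 3.66, 4.6, 3.25 and 3.14 TPM in -/- libraries. Its -/- replicate 3 lay above +/+ replicate 1 and +/- replicate 1, and the log2 change was -0.94 (SE 0.25, limma adjusted p = 0.0316).

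Cfap53, a laterality gene of the doublet lumen, had 2.86 and 2.86 TPM in +/+, 2.1, 5.69 and 6.21 TPM in +/- and 2.22, 1.69, 1.69, 1 and 1.72 TPM in -/- libraries. The classes overlapped, as +/- replicate 1 lay below -/- replicate 1. Its log2 change was -0.83 (SE 0.23, limma adjusted p = 0.0427). Of the falls at 16 dpp those of Cfap53, Cfap161 and Cfap36 lost their calls in the most alternatives. Cfap53 lost its call in 15 of 40 and Cfap161 and Cfap36 in 8 each. Leaving out +/- replicate 2 (or 3) of 16 dpp did so for all 3 genes. Fitting the 16 dpp libraries alone also ended the calls of Cfap298, Cfap69, Cfap45, Cfap299 and Cfap46. Their limma adjusted p there was 0.062, 0.083, 0.085, 0.0999 and 0.104.

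The other 3 inner proteins had the smallest changes of all tested Cfap genes. Cfap20 (chr8:95420249-95434869, minus strand) had 91.6 and 96.3 TPM in +/+, 85.3, 108 and 97.5 TPM in +/- and 83.2, 88.7, 95.3, 81.8 and 82.1 TPM in -/- libraries of 16 dpp, with a log2 change of -0.15 (SE 0.06, limma adjusted p = 0.277). The classes overlapped, but the mutant was the lower mate in 5 of 5 litter pairs. Cfap126 (chr1:171113918-171126967, plus strand), also called Flattop, had 6.09 and 6.18 TPM in +/+, 5.6, 10.3 and 11.5 TPM in +/- and 6.24, 5.89, 8.56, 5.01 and 7.19 TPM in -/- libraries. The mutants lay on both sides of the +/+ animals and below +/- replicates 2 and 3, and the change was -0.20 (SE 0.23, limma adjusted p = 0.774). Cfap77 (chr2:28926949-29055066, minus strand) had 1.14 and 1.98 TPM in +/+, 0.75, 1.57 and 1.4 TPM in +/- and 1.96, 1.23, 1.5, 1.41 and 2.14 TPM in -/- libraries. It was low in all of them, with both classes mixed and a change of 0.17 (SE 0.22, limma adjusted p = 0.807).

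Both cytoplasmic dynein assembly factors fell, with smaller log2 changes than the central pair, spoke and inner protein genes that fell; the difference between genes was not tested. Cfap298, which acts before dynein arms reach the axoneme, had 56.6 and 54.4 TPM in +/+, 48.2, 74.6 and 85.9 TPM in +/- and 34.9, 42, 40.5, 44.2 and 47.2 TPM in -/- libraries of 16 dpp. Cfap300, a partner of the assembly factor DNAAF2, had 28 and 27.8 TPM in +/+, 26.2, 36.6 and 42.3 TPM in +/- and 22.8, 21.8, 18.3, 20.6 and 18.8 TPM in -/-. In both genes all mutants were below all non-mutants. The log2 change was -0.58 (SE 0.12, limma adjusted p = 0.00401) for Cfap298 and -0.61 (SE 0.13, limma adjusted p = 0.00473) for Cfap300. An unstranded count could mix Cfap298 with the opposite-strand Gm49727, with which it shares 703 exon bases.

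The 7 remaining genes have other or less settled roles, and 2 of the 3 tested fell. Cfap299 (chr5:98329304-98802047, plus strand) had 5.62 and 4.53 TPM in +/+, 0.46, 10.3 and 12.98 TPM in +/- and 1.36, 0.96, 0.38, 0 and 1.55 TPM in -/- libraries. One non-mutant, +/- replicate 1, sat inside the mutant range, and 1 mutant was listed at 0. The log2 change was -1.80 (SE 0.36, limma adjusted p = 0.00178). Cfap36 had 91.3 and 66.2 TPM in +/+, 66.2, 119 and 138 TPM in +/- and 55.8, 71.5, 58.4, 54.2 and 70.01 TPM in -/- libraries, which overlap, and changed by -0.57 (SE 0.15, limma adjusted p = 0.0302). Cfap97, related to a fly protein of the sperm tail, averaged 33.4 ± 11.5 TPM in non-mutants and 22.1 ± 2.54 TPM in mutants (SD, n = 5 each) and missed the threshold at -0.51 (SE 0.17, limma adjusted p = 0.129). With litter as a fixed block its adjusted p was 0.0191, and as a random block 0.027. Over all 22 genes the fixed block called 17 and the random block 18.

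In 9 of the 22 tested genes every mutant lay below every non-mutant at 16 dpp, against 2.28% of all rows, and in 0 genes every mutant lay above (2.07% of all rows). The 9 were Cfap43, Cfap52, Cfap57, Cfap65, Cfap70, Cfap74, Cfap206, Cfap298 and Cfap300. Of them 2, Cfap52 and Cfap65, are among the 5 genes that passed the filter only through the 16 dpp non-mutants, and 7 are among the 17 others. Within litters of 16 dpp, the mutant was the lower mate in 5 of 5 pairs for 16 of the 22 genes (3 of those 5 and 13 of the 17), against 5.85% of all rows, and for 13 of the 15 that fell. These are the same libraries as in the test above. The exceptions among the 15 were Cfap53 and Cfap299, each lower in 4 of 5.

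**Figure D3:**
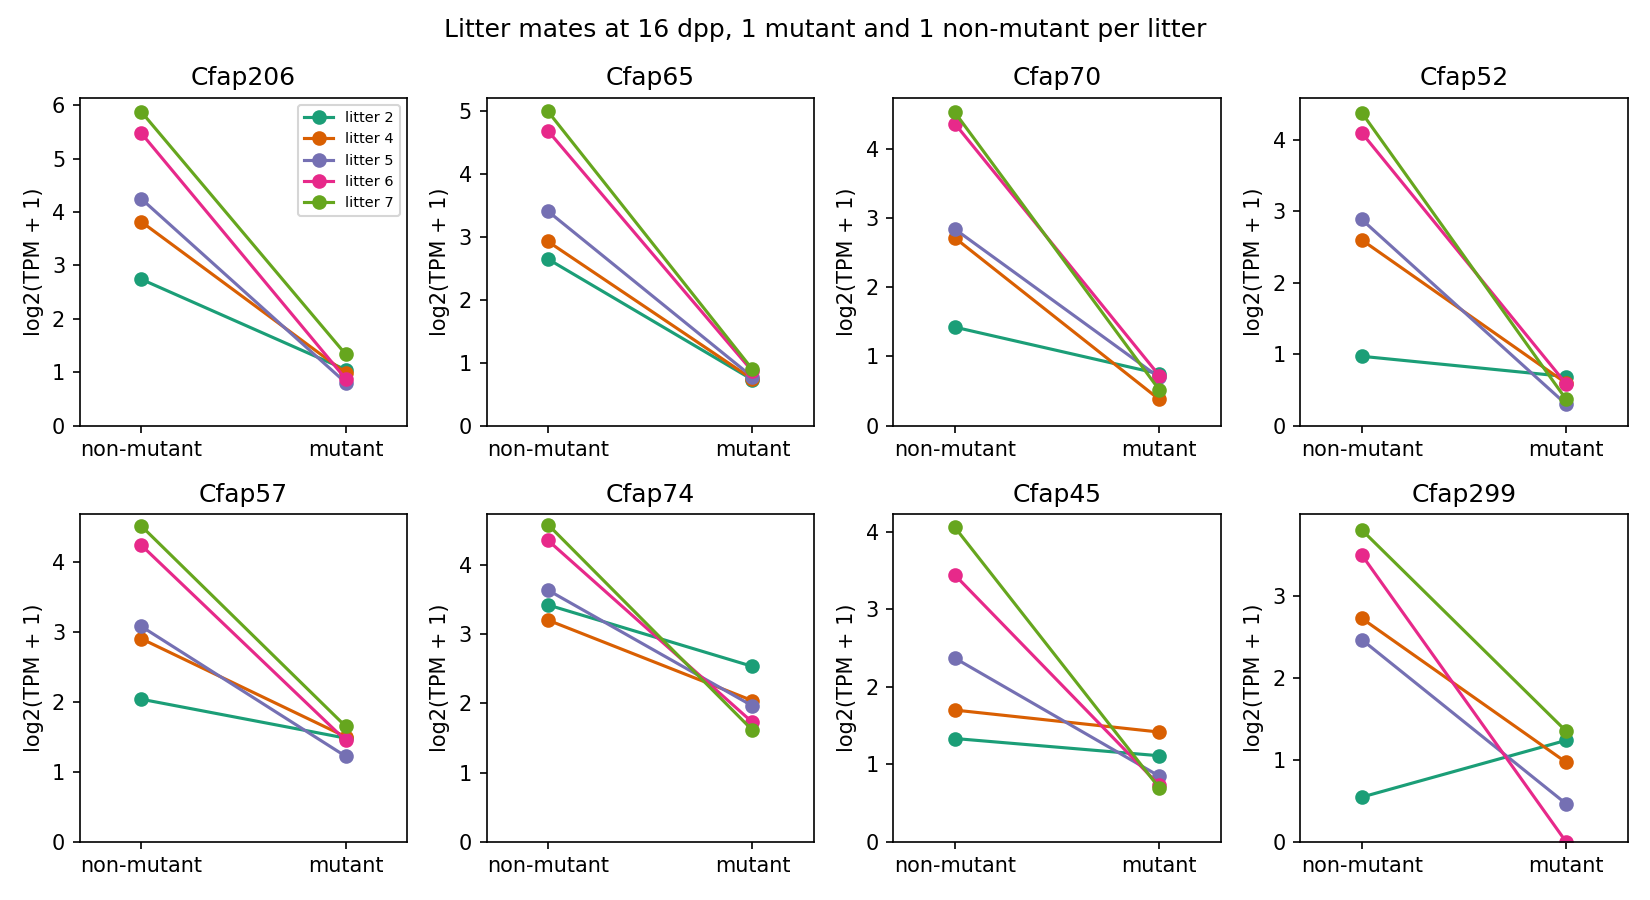
Each line joins the non-mutant and the mutant of 1 litter of 16 dpp, on the scale of log2(TPM + 1), for the 8 Cfap genes with the largest falls. The lines slope down except that of Cfap299 in litter 2, and litters 6 and 7 start highest while litter 2 starts lowest in 7 of the 8 panels.

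The non-mutants of 16 dpp were less alike than the mutants, whereas the fit assumes 1 spread per gene in all 6 groups. The ratio of the highest to the lowest non-mutant was 20.7 for Cfap52, 13.1 for Cfap70, 10.3 for Cfap45 and 5.86 for Cfap65, and in mutants the same ratio was 2.65, 2.27, 2.69 and 1.303. Genes with small falls were steadier, with a non-mutant ratio of 1.78 for Cfap298 and 1.62 for Cfap300, and Cfap20 had the lowest of all tested genes, 1.26. All 15 genes that fell had their highest non-mutant value in +/- replicate 3, and 13 of them had the lowest in +/- replicate 1. The Cfap genes together summed to 402 and 388 TPM in the +/+ libraries, 312, 639 and 731 TPM in +/- and 259 to 295 TPM in the mutants. Pachytene spermatocyte markers moved in nearly the same order, with sums of 447 and 470 TPM in +/+, 247, 1049 and 1351 TPM in +/- and 119 to 158 TPM in the mutants. The part of pachytene cell number in the Cfap differences was not tested. Of the 12 genes on that marker list 7 were tested, and of these 6 fell and 0 rose, against 2.75% and 0.509% of all rows. Marker genes high only in the 16 dpp non-mutants could pass the filter through those libraries alone, and this count was not split. Leydig, macrophage and erythroid markers had 0 called, with sums of 96.2 to 358 TPM, 42.7 to 93.7 TPM and 94.3 to 463 TPM in the 16 dpp non-mutants and 160.25 to 474 TPM, 66.7 to 128 TPM and 191 to 719.96 TPM in the mutants, and their part was not tested either.

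The same comparison at the earlier ages gave no call. At 12 dpp 0 of the 22 Cfap genes and 0% of all rows passed the limma test, with 0 Cfap genes and 225 rows at an unadjusted p under 0.05. At 8 dpp the counts were 0 of 22 and 0% of rows, with 0 Cfap genes and 417 rows at an unadjusted p under 0.05. The largest differences in size at 12 dpp were -0.37 for Cfap126 (SE 0.23), -0.30 for Cfap61 (SE 0.22) and 0.28 for Cfap54 (SE 0.23). Cfap206 stood at 0.874 ± 0.168 TPM in non-mutants and 0.86 ± 0.378 TPM in mutants of 12 dpp (SD, n = 5 each), and Cfap65 at 0.268 ± 0.106 TPM and 0.232 ± 0.1201 TPM (SD, n = 5 each). Heterozygous and wild-type animals, compared over the 3 ages with age as a factor, differed in 0 of 21 Cfap genes tested and in 0% of 18668 rows by limma, with 0 Cfap genes and 1972 rows at an unadjusted p under 0.05.

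Between 12 and 16 dpp most of these genes rose in non-mutants. Of the 22 tested 17 rose and 0 fell, while 8.88% of all rows rose and 13% fell (21.8% in either direction). The 5 genes that passed the filter only through the 16 dpp non-mutants, where this step ends, all rose and had to be high there; of the 17 others 12 rose. With median-ratio scaling 13.1% of all rows rose and 7.88% fell. The 6 central pair genes tested all rose, as did both dynein assembly factors and the 3 of other roles, beside 4 of 7 inner proteins and 2 of 4 spoke and inner dynein genes. The 5 without a call were Cfap43, Cfap53, Cfap61, Cfap77 and Cfap126.

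Cfap206 ran from 0.73 to 1.09 TPM at 12 dpp and from 5.69 to 57.9 TPM at 16 dpp in non-mutants, a change of 3.53 (SE 0.34, limma adjusted p = 8.85e-09). For Cfap65 the ranges were 0.15 to 0.38 TPM and 5.27 to 30.9 TPM, with a change of 3.40 (SE 0.27, limma adjusted p = 2.88e-10). Neither gene overlapped between the ages. Cfap57 moved from 0.49 to 1.17 TPM to 3.12 to 22 TPM (2.52, SE 0.27), and Cfap299, listed at 0 in 3 of 5 libraries of 12 dpp, reached 0.46 to 12.98 TPM (2.42, SE 0.36). Even Cfap20, already abundant, rose from 78.7 ± 2.64 TPM to 95.7 ± 8.24 TPM (SD, n = 5 each), a change of 0.28 (SE 0.06, limma adjusted p = 0.00129).

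At the same age step fewer Cfap genes were called in mutants than in non-mutants, though their share was not below that of all rows. Of the 22 genes 3 rose and 1 fell, against 6.21% and 5.89% of all rows (12.1% in either direction). Cfap69 rose from 3.74 ± 1.04 TPM to 7.75 ± 1.84 TPM (SD, n = 5 each), a change of 0.89 (SE 0.25, limma adjusted p = 0.0166). Cfap126 rose by 0.79 (SE 0.23, limma adjusted p = 0.0216) and Cfap36 by 0.51 (SE 0.15, limma adjusted p = 0.0286). Cfap43 went the other way, at -1.08 (SE 0.28, limma adjusted p = 0.0101). Without litter 13, whose Prdm9 levels contradict its labels, Cfap43 alone kept its call (1 of 22). Cfap69 and Cfap36 were the 2 genes that rose in both classes.

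**Figure D4:**
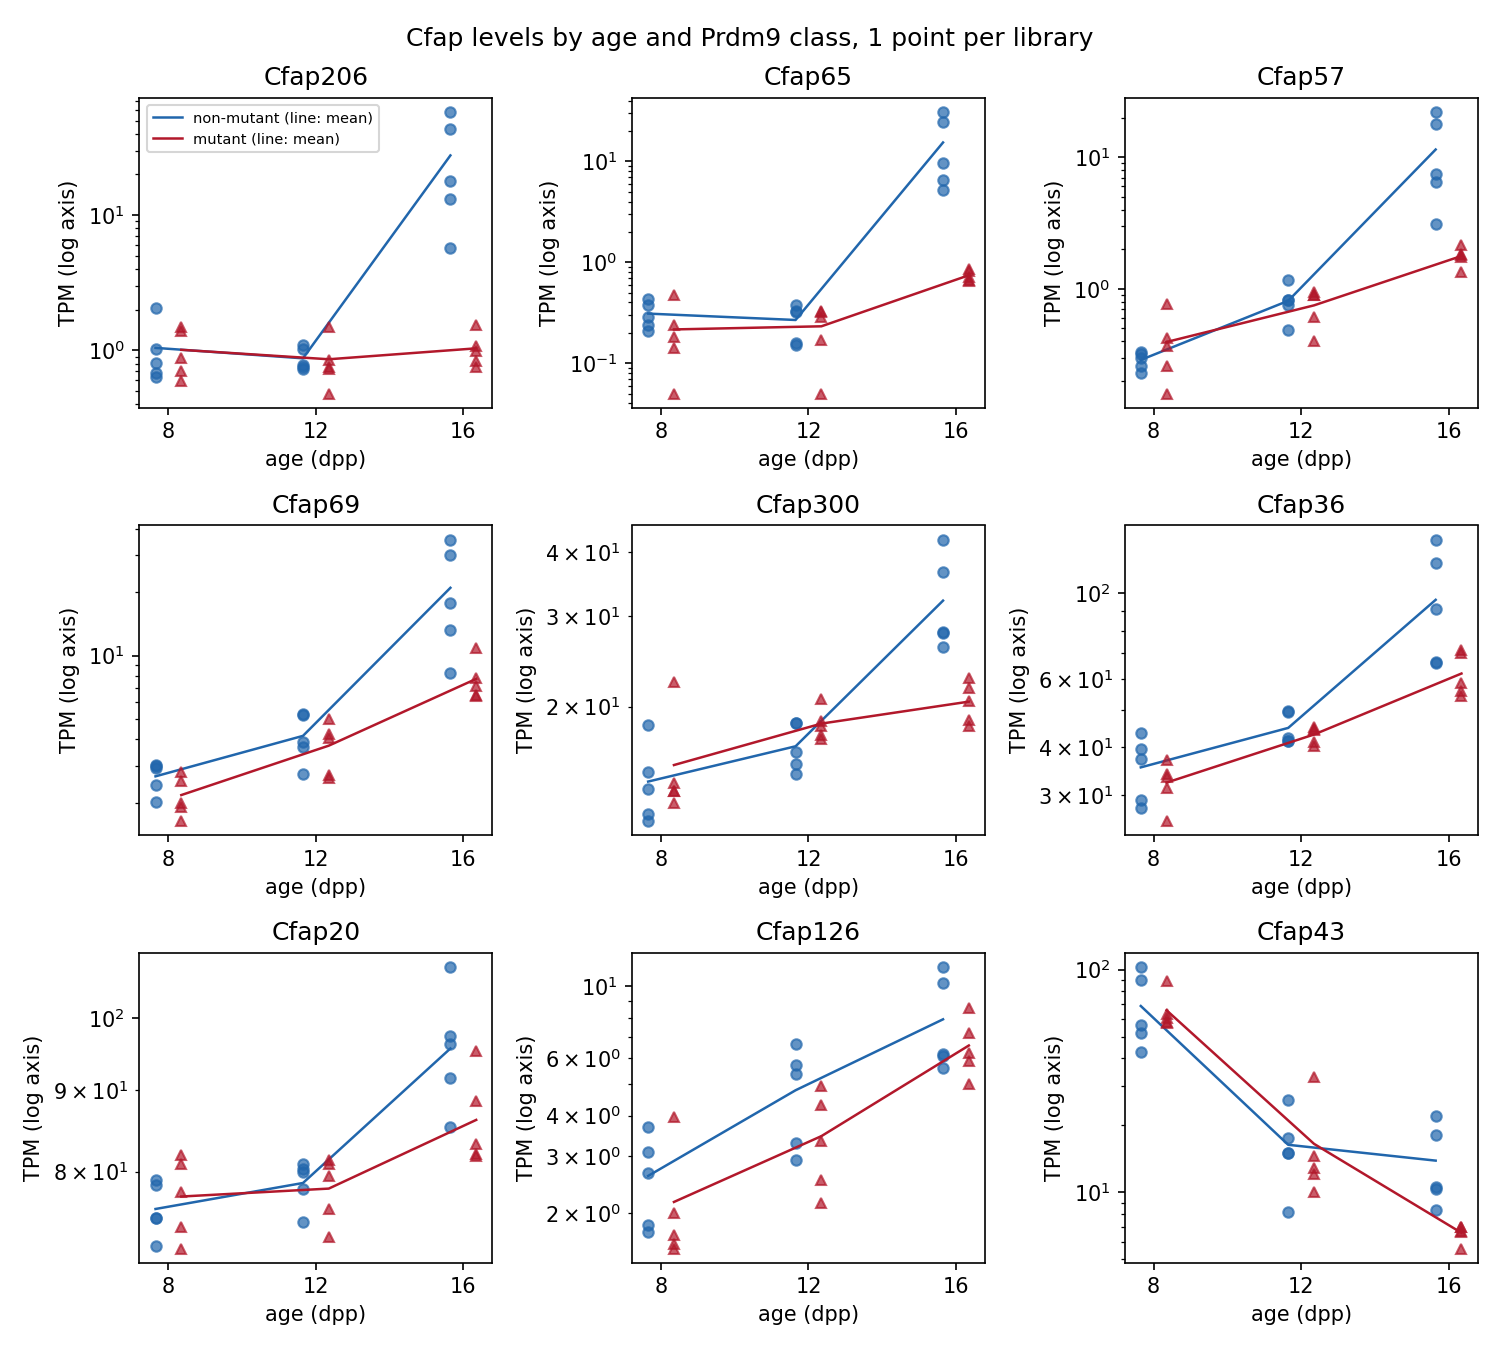
TPM of 9 Cfap genes on a log axis against age in dpp, with 1 point per library, circles for non-mutants and triangles for mutants, and lines through the group means. Non-mutants of Cfap206, Cfap65 and Cfap57 climb between 12 and 16 dpp and leave the mutants behind, both classes of Cfap69, Cfap36 and Cfap126 climb, and Cfap43 drops in both classes after 8 dpp.

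Whether the step from 12 to 16 dpp differed between the classes was tested directly, as mutant step minus non-mutant step. It was smaller in mutants for 8 of the 22 Cfap genes and larger for 0, against 1.26% and 0.0849% of all rows (1.35% in either direction). Of the 5 genes that passed the filter only through the 16 dpp non-mutants, a choice that favours a smaller mutant step, it was smaller for 3 (Cfap65, Cfap52 and Cfap46), and of the 17 others for 5. The 8 were Cfap206 (-3.39), Cfap65 (-2.89), Cfap70 (-2.46), Cfap52 (-2.36), Cfap74 (-1.88), Cfap57 (-1.85), Cfap46 (-1.22) and Cfap300 (-0.75), as log2 differences. For Cfap206 the SE was 0.48 and the limma adjusted p 6.02e-05, and for Cfap300 they were 0.19 and 0.0367. Without litter 13, Cfap46 and Cfap300 lost their calls, at limma adjusted p of 0.1075 and 0.1019. Cfap69 and Cfap36, with -1.05 (SE 0.35, limma adjusted p = 0.226) and -0.52 (SE 0.22, limma adjusted p = 0.505), were not called. The comparisons of mutants with non-mutants, of the ages and of the steps share libraries, so they are not separate evidence. Leaving out +/- replicate 2 or 3 of 16 dpp brought the 8 down to 5, and leaving out +/- replicate 1 raised it to 11. Cfap65 missed the filter in each of these fits.

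At 8 dpp, the earliest age, a few Cfap genes already stood well above the others. In non-mutants Cfap20 ran over 71.8 to 79.1 TPM, Cfap43 over 42.7 to 103 TPM, Cfap36 over 27.8 to 43.5 TPM, Cfap298 over 25.6 to 35.3 TPM, Cfap300 over 11.97 to 18.4 TPM and Cfap97 over 9.62 to 15.3 TPM. Every other Cfap gene stayed under 4 TPM in each 8 dpp non-mutant library. The 8 dpp mutants held the same 6 genes at the top, with means of 77.2, 65.7, 32.4, 32.7, 15.4 and 13.7 TPM in the same order. Between 8 and 12 dpp the Cfap genes moved little. In non-mutants 2 rose and 1 fell of 22, against 20.3% and 12.1% of all rows (32.5% in either direction), and in mutants 1 rose and 1 fell, against 17.5% and 12.2% (29.7%). The risers in non-mutants were Cfap126, by 0.66 (SE 0.23, limma adjusted p = 0.0261), and Cfap97, by 0.53 (SE 0.17, limma adjusted p = 0.0197), both without a call under median-ratio scaling. In mutants Cfap36 rose by 0.41 (SE 0.15, limma adjusted p = 0.0432), a call that median-ratio scaling, quantile normalization and leaving out litter 13 each ended.

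Cfap43 was the 1 Cfap gene that fell at this step. Its 8 dpp libraries had 89.4, 42.7 and 56.7 TPM in +/+, 103 and 51.9 TPM in +/- and 60.5, 58.4, 63.4, 88.8 and 57.3 TPM in -/-. At 12 dpp they had 14.99 TPM in +/+, 15.1, 8.19, 25.9 and 17.6 TPM in +/- and 12.8, 10.1, 12.1, 33.03 and 14.6 TPM in -/-. No library of 12 dpp reached the lowest of 8 dpp. The log2 change was -2.01 (SE 0.28, limma adjusted p = 3.53e-06) in non-mutants and -2.04 (SE 0.28, limma adjusted p = 2.73e-06) in mutants, and the mutants fell further by 16 dpp while the non-mutants changed by -0.23 (SE 0.28, limma adjusted p = 0.604). The difference between those later steps was -0.86 (SE 0.40, limma adjusted p = 0.633). Its 8 dpp mean, 68.7 ± 25.9 TPM in non-mutants and 65.7 ± 13.1 TPM in mutants (SD, n = 5 each), was the highest of its 3 ages.

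Genes that build the same structures under other names were counted in lists for comparison at 16 dpp. In these lists 0 rose, beside 0.509% of all rows, a share too low for the 0 to say much. Of all rows 2.75% fell. Genes high only in the 16 dpp non-mutants could pass the filter through those libraries alone. Neither these counts nor the marker counts were split for this. Of the axonemal dynein arm genes 7 of 9 tested fell, and the smallest adjusted p were those of Dnali1, an inner arm light chain, at -2.28 (SE 0.30), and the heavy chain gene Dnah7a at -1.45 (SE 0.20). Of the dynein assembly and docking genes 9 of 13 fell, among them Zmynd10 at -3.71 (SE 0.33) and Lrrc6 at -1.83 (SE 0.22), both assembly factors. In the nexin-dynein regulatory complex and ruler list 3 of 6 fell, among them Ccdc65 at -2.22 (SE 0.30) and the ruler gene Ccdc39 at -1.68 (SE 0.22).

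Radial spoke genes fell in 4 of 7 cases, among them Rsph1, a spoke head protein, at -1.43 (SE 0.23), and central pair genes not named Cfap in 4 of 7, among them Spag6l at -3.27 (SE 0.32) and Spag16 at -2.32 (SE 0.30). Of the tektins, which run along the doublets, Tekt1 fell by 3.22 (SE 0.33) and 1 of 2 tested was called. Intraflagellar transport, which carries parts into the growing tail and also serves immotile cilia, had 5 of 20 fall and a list median of -0.30, with Ift172 at -0.83 (SE 0.15) and Ttc21b at -0.59 (SE 0.13). Of the transcription factors known to act on ciliary genes 2 of 8 fell, Rfx4 at -2.08 (SE 0.25) and Rfx2 at -1.06 (SE 0.26), while Foxj1, at means of 2.50 TPM and 2.60 TPM, and Mybl1 were not called. These 16 dpp values come from the same fit and libraries as those of the Cfap genes.

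RefSeq names 3 further genes Cfap that carry other symbols in M21, and they were kept apart. Cfap410 averaged 14.3 ± 2.92 TPM in non-mutants and 14.3 ± 2.66 TPM in mutants of 16 dpp (SD, n = 5 each), with a limma adjusted p of 0.995. Cfap20dc changed by -0.23 (SE 0.12, limma adjusted p = 0.46). Cfap47 (chrX:79266559-79517285, minus strand), a central pair gene on the X chromosome, had 0.45 and 0.47 TPM in +/+, 0.75, 0.77 and 0.84 TPM in +/- and 1.7, 1.95, 1.16, 2.48 and 2.39 TPM in -/- libraries of 16 dpp. All mutants lay above all non-mutants, whereas the called central pair genes on autosomes were lower. It passed the filter through the mutant libraries alone, and its log2 change was 0.81 (SE 0.14, limma adjusted p = 2.27e-04).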

How the data were processed

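The authors deposited TPM values per gene for 30 libraries, and the litter of each animal is given per the file headers. Per the submitters' processing notes, the tools were Bowtie 1.0.0 and RSEM 1.2.8 and the build mm10 (GRCm38), with no role or order given; the annotation and the use of read strand are not given in the sources used here. The table was held in part: 3.23 to 3.95% of each library's TPM lies outside it. TPM keeps no read depth, so no counting interval can be given.

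Symbols came from GENCODE M21, which matched 37709 of 38906 Ensembl identifiers. With limma 3.58.1 in R 4.3.3, a trended model of log2(TPM + 1) was fitted to rows over 1 TPM in at least 5 libraries, with 6 groups and no scaling beyond TPM, and tested on simulated data. Calls were made at a Benjamini-Hochberg adjusted p under 0.05, with adjustment over every row tested. The members and gene lists were chosen with earlier results of these data known. Named with values were genes reaching a mean of 1 TPM in a group; 16 dpp libraries were given for the 12 largest called changes and the 3 smallest changes, and for a few genes picked after their values were seen (Cfap36, Cfap43, Cfap298, Cfap300, Cfap47). From each gene list up to 2 called genes of smallest adjusted p were named.

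Replicate numbers in the titles run separately within each genotype and pair nothing, but the header gives 14 litters, of which 13 hold 1 mutant and 1 non-mutant and litter 8, of 8 dpp, holds 2 of each. In the 13, deviations of mates from the group means correlated at 0.073 to 0.39 (median 0.24, 12 over 0.1), against a median of -0.084 across litters. The 4 possible pairs of litter 8 gave 0.063 to 0.246. Litter was therefore fitted as a block, as an alternative. Alternatives changed the pseudocount, filter, scaling, control genotype, libraries and block. Promoter windows came from RefSeq (GRCm38.p6).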

Additional observations from a re-analysis of the deposited data

Results flagged for a closer look

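The step from 12 to 16 dpp differed between the classes, by the limma interaction test, for 8 of the 22 Cfap genes tested, against 1.35% of all rows. As mutant step minus non-mutant step on the log2 scale it was -3.39 for Cfap206, -2.89 for Cfap65, -2.46 for Cfap70, -2.36 for Cfap52, -1.88 for Cfap74, -1.85 for Cfap57, -1.22 for Cfap46 and -0.75 for Cfap300. Cfap65, Cfap52 and Cfap46 passed the filter only through the 16 dpp non-mutants, which favours a smaller mutant step. Without litter 13, Cfap46 and Cfap300 lost their calls.

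Single libraries stood apart from the other 4 of their group, by Dixon's test, in 11 of 150 groups of 5, and chance alone flags about 1 in 20. Cfap43 appeared 3 times: at 88.75 TPM in -/- replicate 4 of 8 dpp, at 33.03 TPM in -/- replicate 4 of 12 dpp, and, as the lowest value, at 5.60 TPM in -/- replicate 3 of 16 dpp. At 8 dpp the -/- replicate 2 was highest for Cfap126, at 3.96 TPM, and for Cfap299, at 0.41 TPM with its group otherwise listed at 0. Also at 8 dpp, Cfap300 reached 22.35 TPM in -/- replicate 1, Cfap206 reached 2.07 TPM in +/+ replicate 1 and Cfap45 reached 1.27 TPM in +/- replicate 2. At 12 dpp Cfap298 was at 45.77 TPM in +/- replicate 4 and Cfap54 at 0.71 TPM in +/- replicate 3. At 16 dpp Cfap46 was at 1.15 TPM in -/- replicate 1, the mutant that reached the non-mutant range.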

How the results depend on the processing

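The count of Cfap genes lower in mutants at 16 dpp, 15 of 22, was 3 of 18 with the +/+ libraries alone as controls and 6 of 21 with the libraries of that age alone. Leaving out 1 library gave 11 to 17, each of these of 21 tested, since Cfap65 missed the filter there. With litter as the replicate block it was 17 (fixed) or 18 (random), adding Cfap43 and Cfap97, and Cfap54 with the random block, and no fall lost its call under either block. Cfap206, Cfap57 and Cfap70 passed in all 40 alternatives, and Cfap52 and Cfap65 in all 38 and 34 that tested them. Cfap65 missed the filter with +/+ controls alone and whenever a 16 dpp non-mutant was left out, so those alternatives could not test it. Cfap52 missed the filter with +/+ controls alone and with the 16 dpp libraries alone. With +/+ controls alone 2 genes without a call changed sign, Cfap126 at 0.069 and Cfap61 at 0.026. The share of all rows that fell under each alternative is not reported, so a loss of calls particular to Cfap genes cannot be read from these counts.

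For the mutant step from 12 to 16 dpp the count of 4 became 2 with no filter and 1 without litter 13, and 2 to 5 with 1 library left out. For the mutant step from 8 to 12 dpp the count of 2 became 4 with a pseudocount of 0.1, and 1 with no filter, with median-ratio scaling, with quantile normalization or without litter 13, and 1 to 4 with 1 library left out. The non-mutant count of 3 for that step became 1 with median-ratio scaling and 1 to 4 with 1 library left out. The 8 genes whose later step differed became 10 with the random litter block and 5 to 11 with 1 library left out, and the 17 risers of non-mutants 16 to 19. The other alternatives kept each count within 1.5 times, and the counts of 0 at 8 dpp, at 12 dpp and between +/- and +/+ animals stayed at 0 in every alternative run. Fixed litter terms cannot be had for the age steps, since litters are nested in age. The causes of these shifts were not tested. With median-ratio scaling the median change of all rows at 16 dpp moved from 0.07 to near 0. Depth is unknown, so what it limits for genes near 1 TPM could not be assessed.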
